A study of Oryza sativa with 6 samples.

Results

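A total of 143 of the 29011 genes with a deposited value had a mean of at least 300 FPKM over the 3 Control libraries, and these most abundant transcripts of control leaves are described here. FPKM is the number of sequenced fragments of a gene relative to the length of the gene and the depth of the library, so that levels can be compared between genes. The genes were chosen on the Control mean alone, whatever their level with ShSDH1, and 1 further gene at that level was left out because its identifier falls in a range that the rule of choice excludes. RNA came from leaves of rice seedlings that were 2 weeks old and had been treated with a protein for 6 h. The ShSDH1 group (3 libraries) received ShSDH1, named in the series title as an oxidoreductase of the endophyte OsiSh-2. The Control group (3 libraries) received the pCold TF protein, the product of a cold-shock expression vector whose tag is the bacterial chaperone trigger factor. The labels give neither the rice cultivar nor the dose, and they do not say whether separate plants or pools gave the libraries of a group, so p-values measure only how far these libraries spread, and that spread may be technical.

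In a green leaf a small number of genes supplies a large part of the messenger RNA. Nuclear genes for the Rubisco small subunit, for chlorophyll a/b-binding antenna proteins and for photosystem subunits are textbook examples, alongside housekeeping genes for translation and metal binding. That is background only. The table lists identifiers in the OsR498 style, 0 of which matched the 39387 rice genes of the reference table used here, so no product or role is given for any of the 143 genes and the leaf label could not be set against marker genes. Genes are called by their rank in Control mean, and only 4 identifiers are printed.

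Read from the steps of the FPKM values, library depth was 35635022, 41776866 and 33654750 fragments in ShSDH1 replicates 1, 2 and 3, and 39161994, 36971745 and 41180596 fragments in Control replicates 1, 2 and 3. A gene of this group had between 3507 and 711499 fragments in a library, with a median of 42514. The counting error was therefore at most 1.69% of a value and 0.485% at the median, which covers counting only. The spread between replicates was larger. The median coefficient of variation was 7.60% over the ShSDH1 libraries and 5.78% over the Control libraries, against 8.50% and 7.52% over all 17247 genes tested.

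The levels fell off steeply with rank. The mean level ran from 254.6 to 10982.4 FPKM with ShSDH1 (median 515.2) and from 303.6 to 13127.9 FPKM in Control (median 575.0). In Control 15 genes were at 2000 FPKM or more, 27 lay between 1000 and 2000 FPKM, 40 between 500 and 1000 FPKM and 61 between 300 and 500 FPKM. The 25 highest genes made up 50% of the summed level of the group with ShSDH1, and the 24 highest did so in Control. The order was largely shared between treatments, with a Spearman rho of 0.941 between the group means over the 143 genes, as a description across genes that share the same libraries. The threshold did not mark a gap in level. The 3 genes just inside it averaged 313.5, 385.8 and 254.6 FPKM with ShSDH1 and 309.7, 304.5 and 303.6 FPKM in Control. The 3 just outside averaged 273.7, 275.9 and 268.0 FPKM with ShSDH1 and 296.0, 295.4 and 293.9 FPKM in Control.

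**Figure D1:**
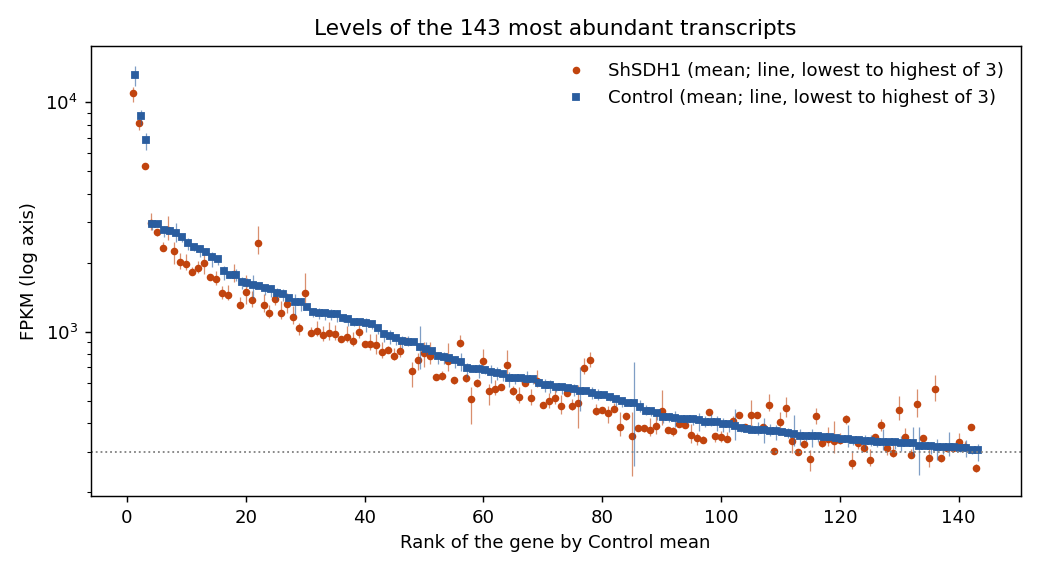
Level in FPKM (log axis) of each of the 143 genes by rank in Control mean, with circles for the ShSDH1 mean, squares for the Control mean and lines from the lowest to the highest of 3 libraries. The 3 highest genes stand clear of the rest, most ShSDH1 means lie a little under the Control means, and the dotted line is the 300 FPKM threshold of the choice.

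The same 3 genes were the 3 highest in all 6 libraries, and the same gene led in all 6. The most abundant transcript had 10002.1, 11626.2 and 11318.8 FPKM in ShSDH1 replicates 1, 2 and 3, against 13289.1, 14355.5 and 11739.0 FPKM in Control replicates 1, 2 and 3. Every ShSDH1 library was below every Control library, and Control replicate 3 was close to the highest ShSDH1 library. Measured on log2(FPKM + 1), as all log2 fold changes here, the difference was -0.26 ± 0.14 (SE) and did not pass (limma adjusted p = 0.28).

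The second transcript had 7559.7, 8949.1 and 7833.3 FPKM with ShSDH1, against 8827.4, 9297.3 and 7942.6 FPKM in Control. The groups overlapped (log2 fold change -0.10 ± 0.13 SE, limma adjusted p = 0.667). The third transcript had 5262.5, 5467.5 and 5156.0 FPKM with ShSDH1, against 7325.8, 7049.9 and 6173.7 FPKM in Control. Its ShSDH1 libraries were close together and all below the Control libraries, but the gene did not pass (log2 fold change -0.37 ± 0.12 SE, limma adjusted p = 0.0702). Because it is longer, with an implied length of 2480 bases against 1146 for the first and 564 for the second, the third transcript had the most fragments on average in each group, although in ShSDH1 replicate 3 the first had more, 436547 against 430343. It took 1.31% ± 0.039 of all fragments with ShSDH1 and 1.7% ± 0.15 in Control (SD, n = 3 each), and the first took 1.26% ± 0.099 with ShSDH1 and 1.5% ± 0.15 in Control.

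After these 3 genes the level dropped to 2954.2 FPKM in Control, and the next 7 genes lay between that and 2444.3 FPKM. The fourth averaged 2981.5 ± 268.6 FPKM with ShSDH1 and 2954.2 ± 153.2 FPKM in Control (SD, n = 3 each), and the fifth averaged 2710.2 ± 103.9 FPKM with ShSDH1 and 2949.4 ± 81.7 FPKM in Control. In Control the fourth and the fifth did not differ beyond their spread. The sixth averaged 2321.1 ± 121.2 FPKM with ShSDH1 and 2788.3 ± 164.4 FPKM in Control, the seventh 2789.8 ± 366.2 FPKM with ShSDH1 and 2745.3 ± 68.0 FPKM in Control, and the eighth 2240.6 ± 246.6 FPKM with ShSDH1 and 2706.4 ± 258.7 FPKM in Control. The fourth and the seventh had overlapping groups and log2 fold changes of 0.01 ± 0.10 and 0.02 ± 0.11 (SE), with limma adjusted p of 0.957 and 0.943. The tenth averaged 1974.2 ± 172.5 FPKM with ShSDH1 and 2444.3 ± 144.7 FPKM in Control, and did not pass (log2 fold change -0.31 ± 0.10 SE, limma adjusted p = 0.0734).

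The gene of rank 9 was the only one of the first 10 that passed the test. It had 1884.3, 2193.0 and 1943.0 FPKM with ShSDH1, against 2654.2, 2668.2 and 2457.2 FPKM in Control, so the groups did not overlap. It fell by 0.37 ± 0.10 (SE) on the log2 scale (limma adjusted p = 0.0375). The adjusted p was 0.291 with no filter on low values, 0.0722 with median-ratio size factors, 0.0664 with quantile normalization, 0.141 and 0.124 without ShSDH1 replicates 1 and 3 and 0.147 and 0.146 without Control replicates 1 and 2. Of the first 10 genes, 8 had a negative log2 fold change and 7 had all ShSDH1 libraries below all Control libraries, an order found in 11.8% of all tested genes. Of the 10 genes with the highest Control mean, 9 were also among the 10 highest by ShSDH1 mean, and of the first 20 genes 18 were shared.

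**Figure D2:**
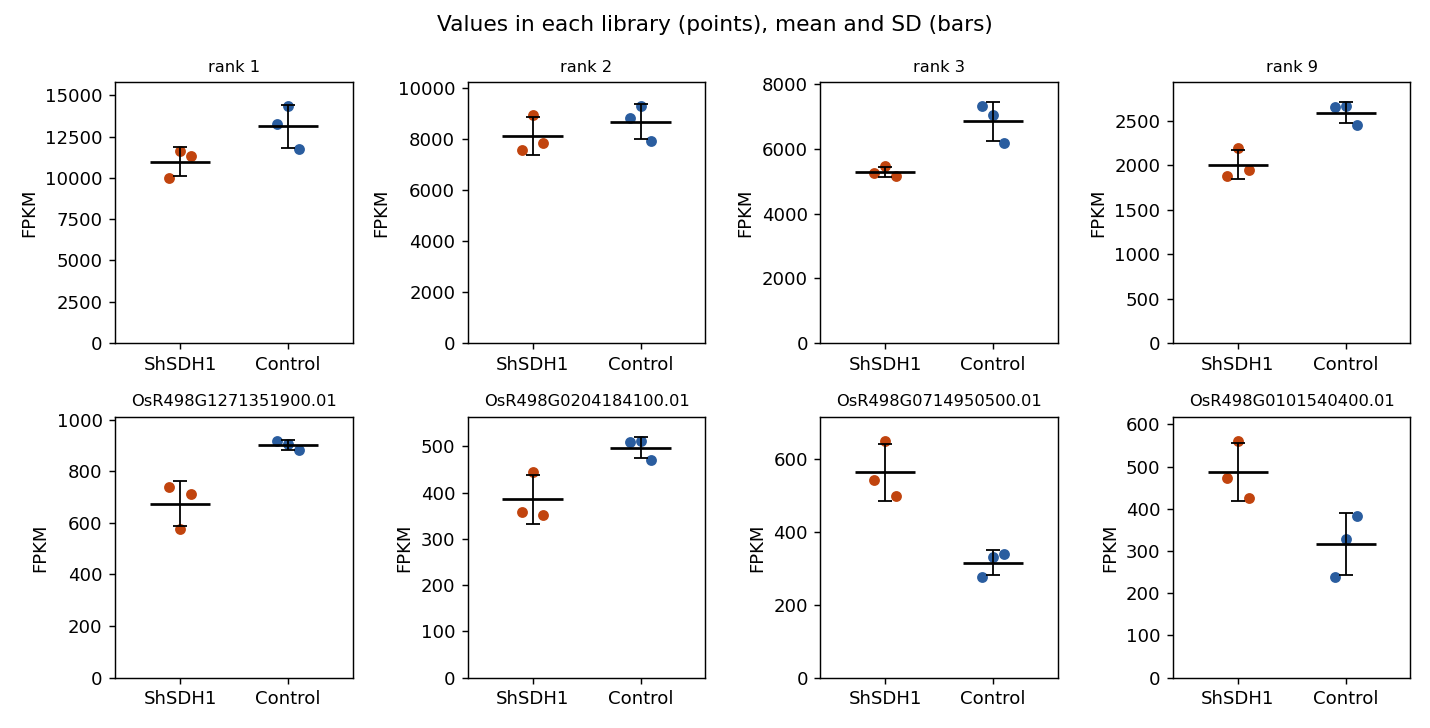
FPKM in each library (points) with the mean and SD (bars) for the genes of rank 1, 2, 3 and 9 in Control mean and for the 4 genes named by identifier, ShSDH1 on the left and Control on the right of each panel. The axes start at 0. The groups overlap in the gene of rank 2 and in none of the other 7.

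Across the 143 genes most levels were slightly lower with ShSDH1. The median log2 fold change was -0.19, a level 1.14 times lower, against a median of 0.04 over all 17247 tested genes. It was negative in 108 of the 143 genes (75.5%) and in 41.2% of all tested genes. The interquartile range of the log2 fold change was -0.27 to -0.01 in the abundant genes and -0.09 to 0.18 over all tested genes. The changes were small: 3 of the 143 genes differed by at least 1.5-fold, all of them past the threshold below, and 0 by 2-fold. All 143 genes passed the filter on low values.

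At a limma adjusted p under 0.05 (Benjamini-Hochberg over all tested genes), 22 of the 143 genes were lower with ShSDH1 (15.4%, against 3.75% of all tested genes) and 10 were higher (6.99%, against 10.2%). Together 32 genes (22.4%, against 14.0%) passed, and 111 did not. The Control values that chose the genes are also part of this difference, so the counts are a description and nothing is read from them. In 65 genes (45.5%, against 11.8% of all tested genes) every ShSDH1 library was below every Control library, and in 17 genes (11.9%, against 23.4%) every ShSDH1 library was above. The groups overlapped in the other 61 genes. A further 30 lower and 4 higher genes had limma adjusted p from 0.05 to under 0.1, so both counts would differ at a looser threshold. The share of all tested genes in that range is not given, so nothing is read from this split.

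These counts rested on single libraries. The lower genes numbered 45 without ShSDH1 replicate 2 and 41 without Control replicate 3, but 1 without ShSDH1 replicate 1 and 0 without ShSDH1 replicate 3, Control replicate 1 or Control replicate 2. At an unadjusted limma p under 0.05 the last 4 of these fits had 36, 36, 35 and 38 lower genes. The share of all tested genes at that unadjusted threshold is not given, so nothing is read from these 4 counts. The higher genes numbered 4, 8 and 6 without ShSDH1 replicates 1, 2 and 3, and 1, 3 and 11 without Control replicates 1, 2 and 3. At an adjusted p under 0.05 those 6 fits called 1.18%, 3.46%, 1.87%, 0.812%, 1.14% and 4.14% of all tested genes lower. The order is ShSDH1 replicates 1 to 3, then Control replicates 1 to 3. Higher calls made up 3.59%, 8.08%, 6.70%, 2.45%, 3.60% and 12.0% of all tested genes in the same fits. The median log2 fold change of the abundant genes stayed between -0.22 and -0.16 in these fits.

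Scaling moved the split of the calls. On FPKM as deposited 68.8% of the calls were lower. With median-ratio size factors 11 genes were lower and 3 higher (78.6% lower, against 4.90% lower and 6.44% higher over all tested genes). With the libraries scaled to the summed FPKM of all other genes 37 were lower and 6 higher (86.0% lower, against 5.77% and 7.18%). Those other genes were set by the same choice on Control values. A lower share of the chosen genes leaves a larger sum to the others, so this scaling lowers the chosen genes further by construction. With quantile normalization 13 were lower and 14 higher (48.1% lower, against 5.71% and 7.27%), and the median difference was -0.06 on the log2 scale. That method makes the distribution of values identical in all libraries, so by construction it takes away a shift common to the highest ranks.

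**Figure D3:**
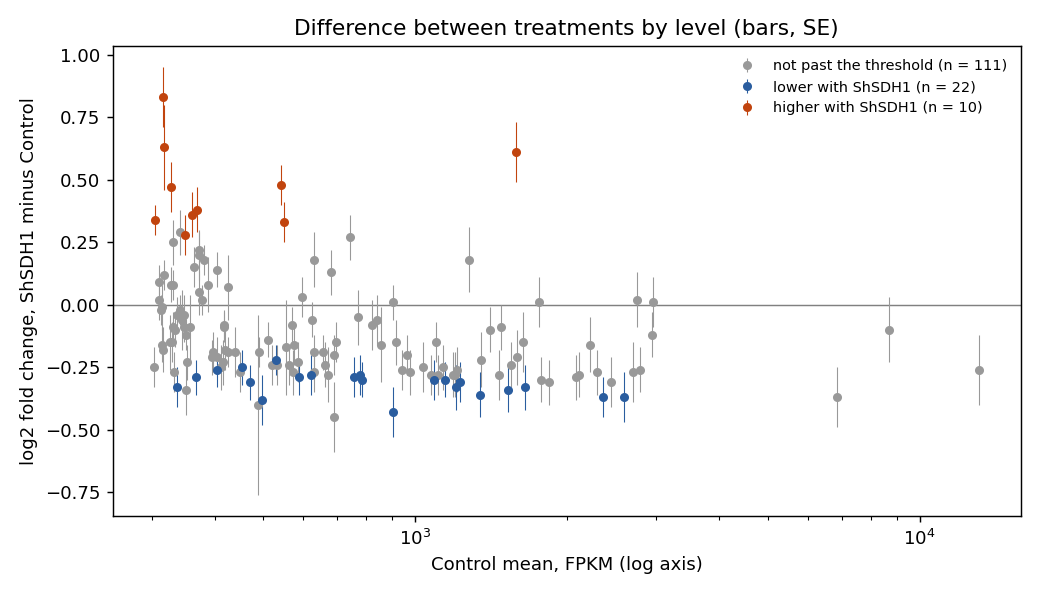
Log2 fold change (ShSDH1 minus Control on the log2(FPKM + 1) scale, bars are SE) of the 143 genes against their Control mean in FPKM (log axis), with the 22 lower and the 10 higher genes in colour. Lower genes occur at all levels up to 2593.2 FPKM, and 9 of the 10 higher genes lie under 1000 FPKM in Control. Most of the 143 genes lie there too, 61 between 300 and 500 FPKM and 40 between 500 and 1000 FPKM.

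The median difference was more negative above 500 FPKM than below, which was not tested. The median log2 fold change was -0.09 in the 61 genes between 300 and 500 FPKM, -0.20 in the 40 genes between 500 and 1000 FPKM, -0.28 in the 27 genes between 1000 and 2000 FPKM and -0.27 in the 15 genes at 2000 FPKM or more. In the highest of these level groups the log2 fold change was negative in 13 of 15 and ran from -0.37 to 0.02. The level groups were set after the values had been seen. They were set on the Control mean, which is also part of the log2 fold change, so nothing is read from the order of these medians.

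The 22 lower genes formed a narrow band. Their log2 fold changes ran from -0.43 to -0.22 with a median of -0.30, which is 1.17 to 1.34 times lower. Their mean level ran from 267.8 to 2006.8 FPKM with ShSDH1 and from 337.0 to 2593.2 FPKM in Control, and the limma adjusted p ran from 0.0203 to 0.0497. All 22 had separate groups, and so had all 10 higher genes. The test that picked these genes already favours such separation, so this count adds little to the calls. Its share among all genes past the threshold is not given. Among the ShSDH1 libraries replicate 2 was the highest in 20 of the 22, and among the Control libraries replicate 3 was the lowest in 20. Over all 143 genes the same held in 113 and 99.

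OsR498G1271351900.01, of rank 48, was the most lowered gene past the threshold. It had 737.2, 575.5 and 710.6 FPKM in ShSDH1 replicates 1, 2 and 3, against 917.7, 904.1 and 881.9 FPKM in Control replicates 1, 2 and 3. The Control libraries were close together and ShSDH1 replicate 2 was the lowest of all, unlike in most of the lower genes. It fell by 0.43 ± 0.10 (SE) on the log2 scale, at a limma adjusted p of 0.0274 that ran from 0.0183 to 0.112 over the alternatives. The call was lost without ShSDH1 replicate 3 (adjusted p = 0.0539), without Control replicate 1 (0.112), without Control replicate 2 (0.0912) with quantile normalization (0.109) and with no filter on low values (0.0999). Its neighbour in identifier order, of rank 58, had 573.1, 394.5 and 563.9 FPKM with ShSDH1, against 718.8, 683.8 and 667.4 FPKM in Control. That gene showed the same order of libraries and the most negative log2 fold change of the group, -0.45 ± 0.14 (SE), and did not pass (limma adjusted p = 0.0621). The implied lengths of the pair were 618 and 258 bases.

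OsR498G0204184100.01, of rank 83, had 358.2, 445.3 and 351.9 FPKM with ShSDH1, against 508.9, 511.9 and 471.1 FPKM in Control. All ShSDH1 libraries were lower, with replicate 2 the nearest to Control. It fell by 0.38 ± 0.10 (SE) on the log2 scale (limma adjusted p = 0.0389, and 0.00865 to 0.146 over the alternatives). It was 0.137 and 0.118 without ShSDH1 replicates 1 and 3, 0.146 and 0.129 without Control replicates 1 and 2, 0.0503 with median-ratio size factors, 0.0579 with no variance trend and 0.106 with no filter on low values.

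Of the 10 higher genes, 9 were below rank 50, and so were 12 of the 22 lower genes. Rank is set by the Control mean, which is also part of the log2 fold change, so nothing is read from these ranks. The log2 fold changes of the 10 higher genes ran from 0.28 to 0.83 with a median of 0.42, and their limma adjusted p from 0.00549 to 0.0477. Their mean level ran from 385.8 to 2432.2 FPKM with ShSDH1 and from 304.5 to 1584.1 FPKM in Control. Of the ShSDH1 libraries, replicate 2 had the top value in 9 of the 10, as it had in 113 of all 143 genes.

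OsR498G0714950500.01, of rank 136, rose the most. It had 542.2, 650.1 and 498.1 FPKM with ShSDH1, against 275.9, 332.1 and 339.1 FPKM in Control, so that every ShSDH1 library was well above every Control library. It rose by 0.83 ± 0.12 (SE) on the log2 scale, which is 1.78-fold (limma adjusted p = 0.00549). Of the 4 genes named by identifier, it alone kept its call in all 18 alternatives, with an adjusted p of 0.00193 to 0.027. Its implied length was 4616 bases, more than 3 times the median of the group.

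OsR498G0101540400.01, of rank 133, had 472.0, 561.1 and 425.5 FPKM with ShSDH1, against 238.2, 329.4 and 383.7 FPKM in Control. The Control libraries differed from each other by 1.61 times, and Control replicate 3 was the nearest to the ShSDH1 libraries. It rose by 0.63 ± 0.17 (SE) on the log2 scale (limma adjusted p = 0.0432, and 0.02 to 0.114 over the alternatives). The call was lost without ShSDH1 replicates 1, 2 and 3 (adjusted p = 0.108, 0.109 and 0.0595), without Control replicates 1 and 2 (0.114 and 0.0931), with median-ratio size factors (0.0668), with scaling to the other genes (0.0549), with no variance trend (0.0633) and with no filter on low values (0.114).

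The most abundant of the higher genes, of rank 22, was picked out after its values had been seen. It had 2180.9, 2884.1 and 2231.7 FPKM with ShSDH1, against 1573.5, 1604.7 and 1574.1 FPKM in Control. The Control libraries were within 1.02 times of each other and all ShSDH1 libraries were above them. It rose by 0.61 ± 0.12 (SE) on the log2 scale (limma adjusted p = 0.015). The adjusted p was 0.11 with no filter on low values, 0.0723 without Control replicate 1, 0.0571 without Control replicate 2 and 0.0505 with median-ratio size factors.

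Summed over the group, the level was lower with ShSDH1, but not in a way that cleared every library. The 143 genes summed to 124763, 140183 and 127107 FPKM in ShSDH1 replicates 1, 2 and 3, against 148289, 150137 and 139412 FPKM in Control replicates 1, 2 and 3. ShSDH1 replicate 2 was above Control replicate 3, so the sums overlapped. As a share of each library's summed FPKM the genes took 27.9, 30.3 and 28.5% with ShSDH1, against 32.9, 33.2 and 30.7% in Control. The shares did not overlap, averaging 28.9% ± 1.25 with ShSDH1 and 32.3% ± 1.36 in Control (SD, n = 3 each). No p is given for these shares, since the Control values that chose the genes enter them. As a share of all fragments, which gives more weight to long genes, the values were 20.8, 22.9 and 21.1% with ShSDH1, against 24.8, 24.9 and 23.1% in Control. These shares did not overlap either, with means of 21.6% ± 1.11 with ShSDH1 and 24.3% ± 1.03 in Control (SD, n = 3 each).

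**Figure D4:**
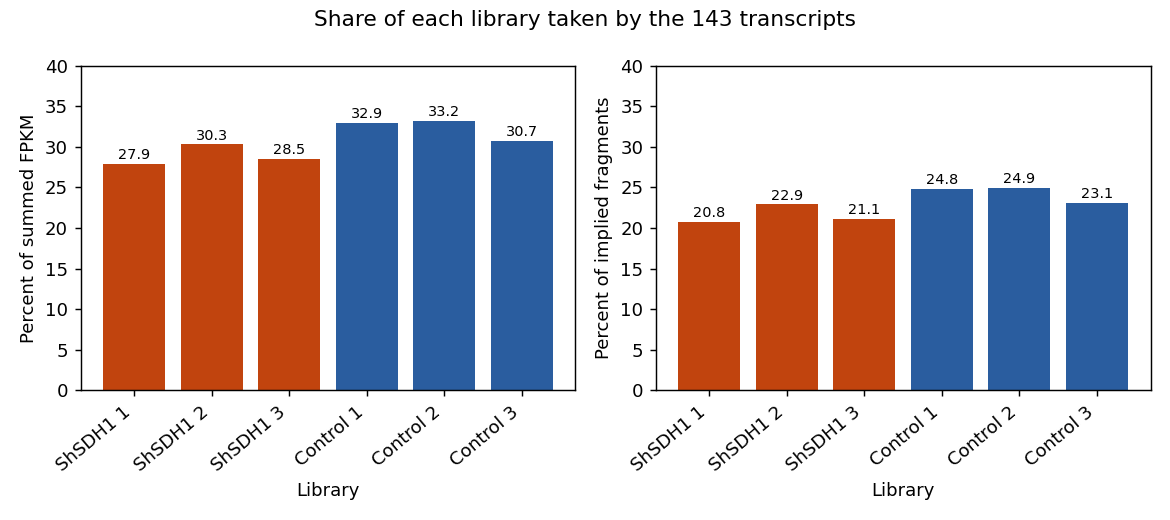
Share of each library taken by the 143 genes, as percent of summed FPKM (left) and percent of implied fragments (right), with 1 bar per library, ShSDH1 before Control. ShSDH1 replicate 2 has the highest ShSDH1 share and Control replicate 3 the lowest Control share in both panels, 30.3 and 30.7% of FPKM and 22.9 and 23.1% of fragments.

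Many genes contributed to the difference in summed level, but not evenly. The 108 genes with a lower ShSDH1 mean contributed -18536 FPKM and the 35 genes with a higher one 3274 FPKM, a net difference of -15262 FPKM. The most abundant transcript supplied 14.1% of this net difference, the 3 highest 28% and the 10 highest 42.1%. As a base, the 3 highest summed on average to 24392 FPKM with ShSDH1 and 28667 FPKM in Control. The 10 highest summed to 41416 FPKM with ShSDH1 and 47848 FPKM in Control, and all 143 to 130684 and 145946 FPKM. The 10 highest took 9.17% ± 0.47 of the summed FPKM with ShSDH1 and 10.6% ± 0.75 in Control, and the other 133 took 19.8% ± 0.80 with ShSDH1 and 21.7% ± 0.63 in Control (SD, n = 3 each). FPKM hold no absolute amounts, so a lower level of these genes and a higher level of all others cannot be told apart, and neither can fewer cells of a type and less RNA per cell in whole leaves.

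The libraries ranked alike over most of the group. Relative to the Control mean, the median log2 level of the 143 genes was -0.22, -0.11 and -0.20 in ShSDH1 replicates 1, 2 and 3, against 0.03, 0.03 and -0.07 in Control replicates 1, 2 and 3. Over all tested genes the same medians were 0.06, 0.01 and 0.05, against -0.02, -0.02 and 0.03. Within Control, replicate 3 was the lowest library in 99 of the 143 genes (69.2%) and in 25.8% of all tested genes. Within the ShSDH1 group, replicate 2 was the highest in 113 genes (79.0%) and in 35.1% of all tested genes. In 61 genes (42.7%) Control replicate 3 lay below both other Control libraries and above all ShSDH1 libraries, an order found in 5.96% of all tested genes. The opposite order was found in 13 genes (9.09%) and in 14.9% of all tested genes. What sets Control replicate 3 and ShSDH1 replicate 2 apart was not tested.

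**Figure D5:**
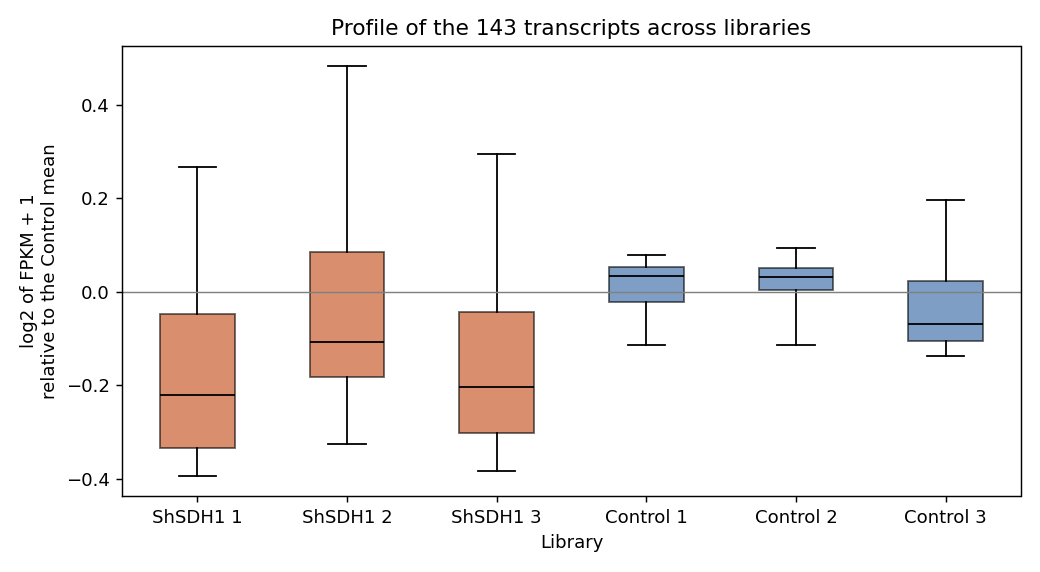
Log2 of FPKM + 1 relative to the Control mean of the same gene, over the 143 genes, with 1 box per library (line, median; box, quartiles; whiskers, the range without the lowest and the highest 5% of genes). The medians are -0.22, -0.11 and -0.20 in the ShSDH1 libraries and 0.03, 0.03 and -0.07 in the Control libraries.

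The choice of genes on Control values was set beside choices that did not use them in the same way. When genes were chosen on Control replicates 2 and 3, the ShSDH1 mean over Control replicate 1 had a median log2 ratio of -0.21 over 145 genes, against 0.06 over all tested genes. With Control replicate 2 left out of the choice it was -0.20 over 143 genes (all tested genes 0.07), and with Control replicate 3 left out it was -0.10 over 145 genes (all tested genes 0.01). The ratio was below 0 in 105, 102 and 109 of these genes. The share of all tested genes with a ratio below 0 is not given, so these 3 counts have no background beside them. Chosen by a ShSDH1 mean of at least 300 FPKM, 146 genes had a median log2 fold change of -0.15, with 21 lower (14.4%, against 3.75% of all tested genes) and 19 higher (13.0%, against 10.2%). Their share of summed FPKM was 28.3, 30.8 and 28.8% with ShSDH1, against 32.8, 33.2 and 30.8% in Control, and ShSDH1 replicate 2 and Control replicate 3 had the same share to 3 digits. Chosen by the mean of all 6 libraries, 146 genes had a median of -0.17, with 22 lower and 14 higher, beside the same shares of all tested genes. Of the 146 genes chosen on ShSDH1, 134 were also among the 143, and the mean of all 6 libraries still includes the Control values. Similar medians from these choices are therefore partly built in.

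Most of the group stayed above the threshold with ShSDH1. Of the 143 genes, 134 also had a ShSDH1 mean of at least 300 FPKM. The 9 that did not had ShSDH1 means of 254.6 to 299.6 FPKM and Control means of 303.6 to 352.0 FPKM. A further 12 genes reached 300 FPKM with ShSDH1, at means of 310.4 to 410.2 FPKM with ShSDH1 and 156.1 to 288.9 FPKM in Control. In each library between 141 and 150 genes were at 300 FPKM or more.

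A few genes varied much more between replicates than the rest. The gene of rank 85 had 445.9, 235.3 and 371.1 FPKM with ShSDH1, against 468.3, 258.9 and 734.8 FPKM in Control. Replicate 2 was the lowest library of each group, and the Control values differed by 2.84 times, which left no difference between treatments beyond the spread (log2 fold change -0.40 ± 0.36 (SE), limma adjusted p = 0.514). The gene of rank 76 had 505.8, 380.8 and 586.7 FPKM with ShSDH1, against 506.7, 449.2 and 703.5 FPKM in Control, again with replicate 2 lowest in both groups. A coefficient of variation over 20% was found in 3 genes over the ShSDH1 libraries and in 4 over the Control libraries. At the other end, 47 genes varied by under 5% with ShSDH1 and 53 did in Control.

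Most of the abundant transcripts were shorter than the median tested gene. Lengths read from the FPKM steps had a median of 1481 bases, with an interquartile range of 1140 to 2506 bases and a full range of 258 to 7499 bases. Over the 17245 tested genes with a length the median was 2236 bases, with an interquartile range of 1503 to 3186 bases, and 97 of the 143 genes were below that median. FPKM divides by length, so at a given number of fragments a short gene has a higher FPKM. The median length was 1608 bases in the 22 lower genes and 1390 bases in the 10 higher genes.

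By their identifiers the 143 genes were spread over the genome. The first digits of an identifier run from 1 to 12, and they are read here as chromosome numbers, which no coordinates were used to check. Read so, each chromosome held between 3 and 21 of the genes. Chromosome 7 held 18 (12.6%, against 7.74% of all tested genes) and chromosome 12 held 13 (9.09%, against 5.28%). Chromosomes 9 and 10 held 4 and 3 genes (2.8% and 2.1%, against 5.57% and 4.95%). The genes of rank 1, 2, 4 and 5 all carried the digits of chromosome 12.

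In identifier order 6 pairs of the genes, with 11 genes in all, were at most 2 places apart among the tested genes, and 1 pair was directly adjacent. In the adjacent pair the log2 fold changes were -0.45 and -0.43, and in the pairs 2 places apart they were -0.08 and -0.06, -0.15 and -0.28, -0.10 and -0.12, -0.12 and 0.01, and -0.23 and -0.31. A run of 3 genes, of rank 2, 5 and 18, each lay 2 places from the next and together held 12603 FPKM with ShSDH1 and 13398 FPKM in Control, 9.18% of the group's summed Control level. None of these 3 passed the test, with limma adjusted p of 0.667, 0.401 and 0.943. Whether near-identical copies among such neighbours share fragments is not stated in the sources used here, so values within a pair may not be independent.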

How the data were processed

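RNA-seq was done on 6 libraries, 3 per group, with groups and replicate numbers from the sample titles and columns matched through the library names. The authors deposited 1 table of FPKM values with 1 column per library and no pooling. No aligner, counter or annotation is named: not given in the sources used here. Mouse builds, GRCm38 and mm10, are listed for these rice samples in the submitters' processing notes. The labels' protocols name a VAHTS kit and also a SMARTER kit for library construction. Strand in counting is not stated, so overlapping genes and near-identical copies may share reads.

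FPKM are not counts, so log2(FPKM + 1) was tested with limma 3.58.1 under R 4.3.3 (a trended eBayes fit). Genes entered if 3 or more of the 6 libraries reached 1 FPKM, which left 17247. Two-sided p-values were adjusted by Benjamini-Hochberg over these 17247 genes and called under 0.05. The test was checked on simulated data, with larger changes than those of the 22 lower genes (1.17 to 1.34 times lower). How the test performs for changes of that size was not tested. Alternatives changed the pseudocount, the filter, the scaling, the variance model, the replicate block, the threshold, the choice of genes and the libraries included. Depths, lengths and fragment numbers were computed from the steps of low FPKM values: all 25303 genes above 0 in at least 4 libraries had a whole length, with fragment numbers within 0.00014 of a whole number. In a simulated table of 6000 genes 99.0% of lengths were exactly right. Shares of a library are given without a test, since the values that chose the genes are part of them. SciPy 1.17.1, pandas 2.3.3 and matplotlib 3.10.9 ran in Python 3.11.15.

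The members, the lists and the tests were chosen with earlier results of these data known. The rule for named genes printed the 2 most lowered and the 2 most raised members past the threshold with groups that do not overlap, and described the 10 highest by rank. Lists of gene names could not be used, since no identifier matched. Replicate numbers 1 to 3 recur across the groups, but the labels do not tie them to plants or days. Same-numbered libraries deviated from their group means with correlations of 0.18, 0.27 and -0.02. For libraries of unlike number the correlations ran from -0.29 to 0.15. These values do not settle whether the numbers pair the libraries, and the main fit took no pairing.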

Additional observations from a re-analysis of the deposited data

How the results depend on the processing

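Counts of genes past the threshold depended on the processing, and the median did so less. The 32 calls (22 lower, 10 higher) were 3 with no filter on low values (0 lower, 3 higher), 14 with median-ratio size factors (11 and 3), 20 with no variance trend (13 and 7) and 3 at an adjusted p under 0.01 (0 and 3). With no filter, 40 were lower and 14 higher at an unadjusted limma p under 0.05, and the share of all tested genes at that threshold is not given. Nor is their share at an adjusted p under 0.01, so nothing is read from the counts there. Lower genes were 34 with a filter at 5 FPKM, 13 with quantile normalization, 37 with scaling to the other genes (6 higher) and 38 with voom on implied fragments; the cause was not tested. Shares of all tested genes moved as well: 1.39% lower and 3.74% higher with no filter, 2.91% and 8.41% with no trend, 3.46% and 9.53% with the replicate block, 5.75% and 14.8% with the filter at 5 FPKM, and 3.83% and 10.2% with voom. Without single libraries there were 1 to 53 calls, 0 to 45 lower and 1 to 11 higher. The replicate block gave 15 lower and 10 higher genes (25 calls), 13 and 10 of them among the 22 and 10; whether the numbers pair the libraries is not settled. At 200 FPKM, with more genes, calls were 57 (35 lower, 22 higher), and at 500 FPKM, with fewer, 19 (3 higher); with the ShSDH1 choice 19 were higher. The median of -0.19 was -0.25 with median-ratio factors and with scaling to the other genes and -0.06 with quantile normalization. Where the share of the group is lower, scaling to the other genes makes its median more negative by construction. By level, added after the data had been seen, the median was -0.09, -0.28 and -0.27 from 300, 1000 and 2000 FPKM.

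For the 146 genes chosen on ShSDH1, the 21 lower and 19 higher were 0 and 6 with no filter, 9 and 8 with median-ratio factors, 0 and 5 at an adjusted p under 0.01, and 33 and 12 with scaling to the other genes. No share of all tested genes is given at an adjusted p under 0.01. Lower genes were 32 with a filter at 5 FPKM, 10 with quantile normalization, 13 with no trend, 13 with the replicate block and 36 with voom. Without single libraries they ran from 0 to 43 lower and from 3 to 21 higher. Their median of -0.15 was -0.21, -0.22 and -0.03 with median-ratio factors, scaling to the other genes and quantile normalization. With median-ratio factors the ratio to a Control library left out of the choice was -0.29, -0.29 and -0.12. The difference in share of summed FPKM, -3.34 percentage points, was -0.168 with quantile normalization and -4.12 to -2.84 without single libraries. Counting error was small beside the spread between the 3 libraries of a group.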
